A study of Homo sapiens with 6 samples.

Results

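RNA from the internal regions of 49 human endogenous retrovirus entries, nearly all of the gammaretrovirus-like class called ERV1, was compared between primed, naive-like and inhibitor-treated H9 cells. An internal region is the part of a provirus that lies between its flanking long terminal repeats (LTRs). The entries were taken by name alone from the 15600 repeat entries of the deposited count table. A name had to end in -int and to begin with HERVE, HERVF, HERVI, HERVP, HERVS, HERV-, HERV1, HERV3, HERV4, HERV15, HERV30, HERV35, HUERS, Harlequin, PRIMA, PABL, LOR1 or one of a fixed set of MER numbers from MER4 to MER110. All 49 were also present in the deposited table of CPM, counts scaled to a common library total. The name rule also took HERV16-int, which belongs to the ERVL class, and HERV17-int, the HERV-W family that holds the syncytin-1 envelope gene, and counts are given with and without these entries. The remaining 47 fell into 29 families by name.

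H9 is an established human embryonic stem cell line, and the labels name no genetic change in any group. The 3 groups held 2 libraries each. Primed cells were kept in mTESR medium and RSeT cells in RSeT, a medium for the naive-like state. RSeT+DT cells were in RSeT with DZNep at 10 nM and TSA at 5 nM, and they were harvested 48 h later. DZNep (3-deazaneplanocin A) interferes with methylation reactions, including histone methylation by EZH2, and TSA (trichostatin A) blocks histone deacetylases. Both agents were given together, so their parts cannot be told apart. RSeT against primed cells thus compares culture states, and RSeT+DT against RSeT cells the addition of both agents, in a series whose title concerns the repression of an 8C state.

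ERV1 proviruses carry gag, pol and env genes between their LTRs, and the LTRs hold the viral promoter and polyadenylation signal. Most copies are old and broken, and many have been reduced to a solitary LTR, so RNA of an internal region comes from the minority of insertions that kept their viral genes. In embryonic cells such proviruses are known to be silenced by KRAB zinc finger proteins, TRIM28 and H3K9 methylation, while single families escape and serve as promoters or enhancers. HERV3 and MER34 include loci with open envelope genes: ERV3-1, annotated as protein coding on the minus strand of chromosome 7 from 64990809 to 65006743, and ERVMER34-1, on the minus strand of chromosome 4 from 52722618 to 52751640 (GRCh38, GENCODE release 29). LTR2, which flanks HERVE, is known as an alternative promoter of cellular genes, and LTR10 and MER61 copies carry p53 binding sites.

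Library totals ran from 11520770 to 38312112 counts assigned to repeats, and the 49 internal regions together held 64290 to 268474 of them. Their share of all repeat counts was 0.563 ± 0.0199% for primed cells, 0.703 ± 0.00303% for RSeT cells and 0.544 ± 0.0202% for RSeT+DT cells (mean ± SD, n = 2 each). As a share of the counts of interspersed repeats alone it was 0.909 ± 0.00521%, 1.02 ± 0.00725% and 0.881 ± 0.016%. RSeT libraries were thus higher than both other groups on either denominator, with no overlap. Both denominators include HERVH-int, an internal region outside the name rule. It had 23829 and 26519 CPM in primed, 73442 and 75615 CPM in RSeT and 118627 and 114855 CPM in RSeT+DT libraries. The shares, like CPM, therefore also depend on the level of HERVH-int, and shares without it were not computed. Each value adds up the reads of every genomic copy of an entry, so none has a coordinate of its own, no value can be tied to the ERV3-1 or ERVMER34-1 locus, related entries can share reads, and reads of host transcripts that run through a copy are included. Fewer cells that carry an RNA and less of it per cell cannot be told apart in these bulk samples. Levels are printed in deposited CPM and compared only between libraries for the same entry, since length and copy number differ between entries.

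Differences are log2 fold changes of edgeR's quasi-likelihood fit of the counts, scaled by TMM, a normalization that centres the bulk of all tested repeats, and ± marks their standard error. A change passed at a Benjamini-Hochberg adjusted p under 0.05 over the 4665 tested repeats. A second scaling, called interspersed scaling, was computed without small RNA, ribosomal RNA and simple repeats, because small RNA took 17.0% to 17.8% of counts in the RSeT libraries and 23.1% to 26.4% in the others. It moved the log2 fold changes of the 1151 repeats tested in that fit by a median of -0.16 for RSeT against primed, 0.22 for RSeT+DT against RSeT and 0.06 for RSeT+DT against primed. That fit also tested and adjusted over those 1151 repeats alone, so it changed the scaling and the tested set together. Library totals, the scale of the deposited CPM, moved the 4665 repeats by -0.13, -0.15 and -0.29. Calls that hold under all 3 scalings are named as such below. Whether the replicates came from separate cultures is not in the labels, so p-values reflect only how these libraries vary and that variation may be technical, and with 2 libraries against 2 an exact permutation test cannot go below p = 0.333.

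In RSeT against primed cells, 32 of the 49 internal regions were higher and 8 were lower, and 9 did not pass. Among all tested repeats 22.8% were higher and 23.8% lower, and among the 1136 tested interspersed repeats 50.8% were higher and 8.01% lower. The log2 fold changes ran from -0.69 to 1.71 with a median of 0.33, beside a median of 0.16 for interspersed repeats and -0.03 for all tested repeats. Among the 89 tested internal regions of other retroviruses 50 were higher and 10 lower, with a median of 0.22. Without HERV16-int and HERV17-int, 30 of 47 were higher and 8 lower. Under interspersed scaling 25 were higher and 11 lower, where 29.8% and 26.3% of interspersed repeats were. With library totals 26 were higher and 11 lower, where 29.1% and 16.8% of interspersed repeats were. A total of 25 rises and 8 falls held under all 3 scalings. How many interspersed repeats did so was not counted. Their share cannot exceed 29.1% for rises and 8.01% for falls, and its difference from the internal regions was not tested. Without some library, the rise of PRIMAX-int and the falls of HERV1_I-int, HERVFH21-int, HERVIP10B3-int and MER101-int were lost. All of these but HERVFH21-int also did not pass with DESeq2 (adjusted p from 0.0524 to 0.258).

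**Figure D1:**
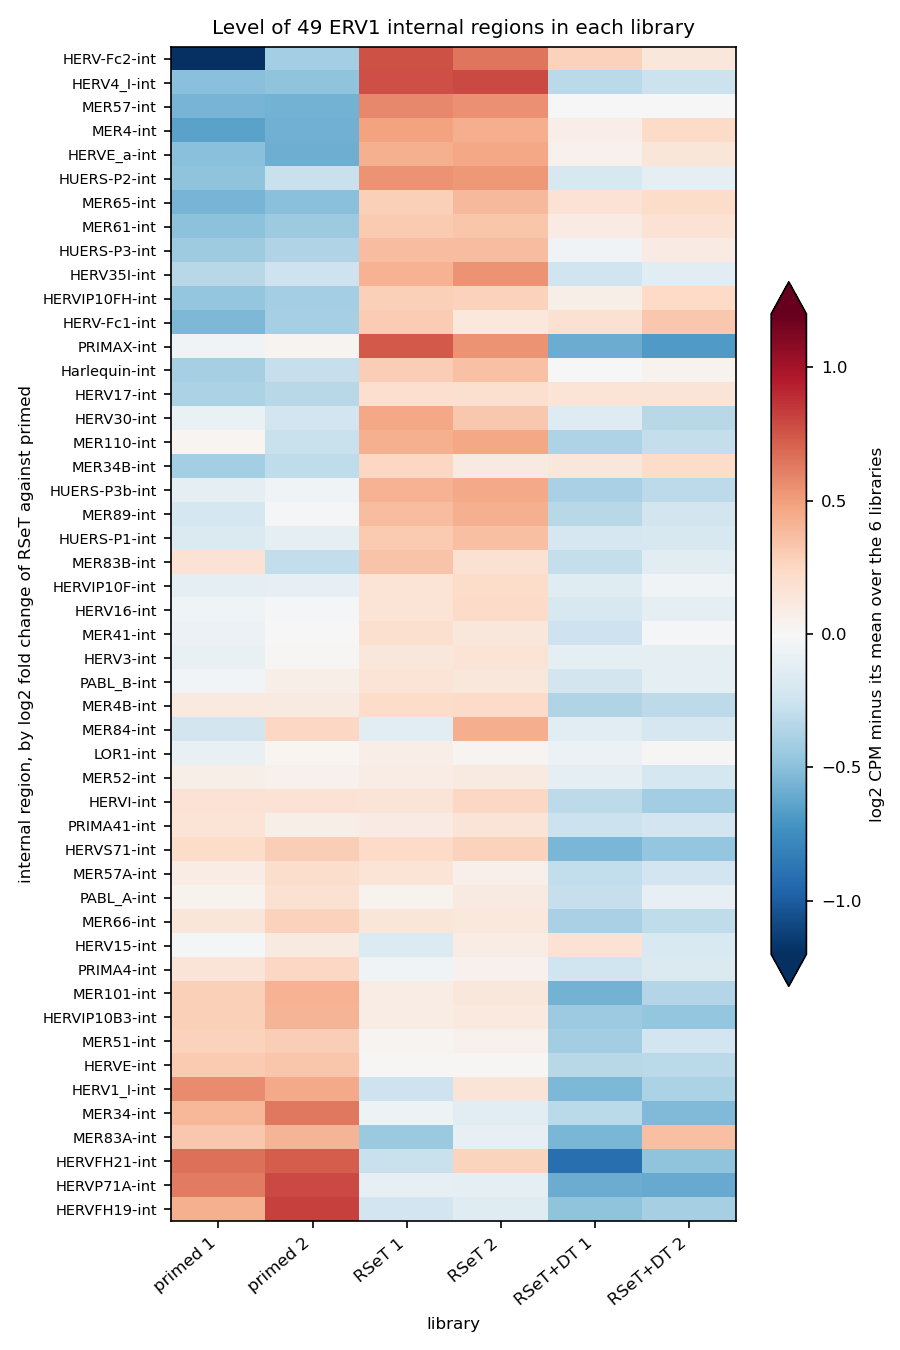
Level of each of the 49 internal regions (rows, ordered by the log2 fold change of RSeT against primed cells) in each of the 6 libraries (columns). Colour gives log2 of the deposited CPM minus the entry's mean over the 6 libraries, red above and blue below it. The upper rows, HERV4_I-int and MER57-int among them, are red in both RSeT libraries, and the lowest rows, HERVFH19-int and HERVP71A-int, are red in both primed libraries.

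The largest rises with at least 50 counts on average were those of HERV4_I-int, MER57-int, MER4-int, HERVE_a-int and HUERS-P2-int. HERV4_I-int, the internal region flanked by LTR51, had 107 and 108 CPM in the primed libraries and 259 and 261 CPM in the RSeT libraries. Its level was 2.65-fold higher in RSeT cells (log2 fold change 1.41 ± 0.040, adjusted p = 5.46e-20). MER57-int had 88.8 and 88.1 CPM in primed and 195 and 191 CPM in RSeT libraries (log2 fold change 1.26 ± 0.044, adjusted p = 4.95e-18). In each of these entries every RSeT library lay above both primed libraries, as the choice of the 5 named rises required. MER4-int, a member of a large old family whose solitary LTRs are spread through the genome, went from 221 and 232 CPM to 483 and 469 CPM (log2 fold change 1.21 ± 0.043, adjusted p = 6.58e-18). HUERS-P2-int, named for a primer binding site that matches proline tRNA and flanked by LTR1, went from 19.5 and 22.6 CPM to 39.6 and 39.2 CPM (log2 fold change 1.04 ± 0.084, adjusted p = 1.14e-10). The rises of all 5 held under the 3 scalings. HERV-Fc2-int had a fitted fold change of 3.26, but it rested on 8 and 13 counts in the primed libraries and 82 and 34 in the RSeT libraries, and it is named after its values were seen.

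**Figure D2:**
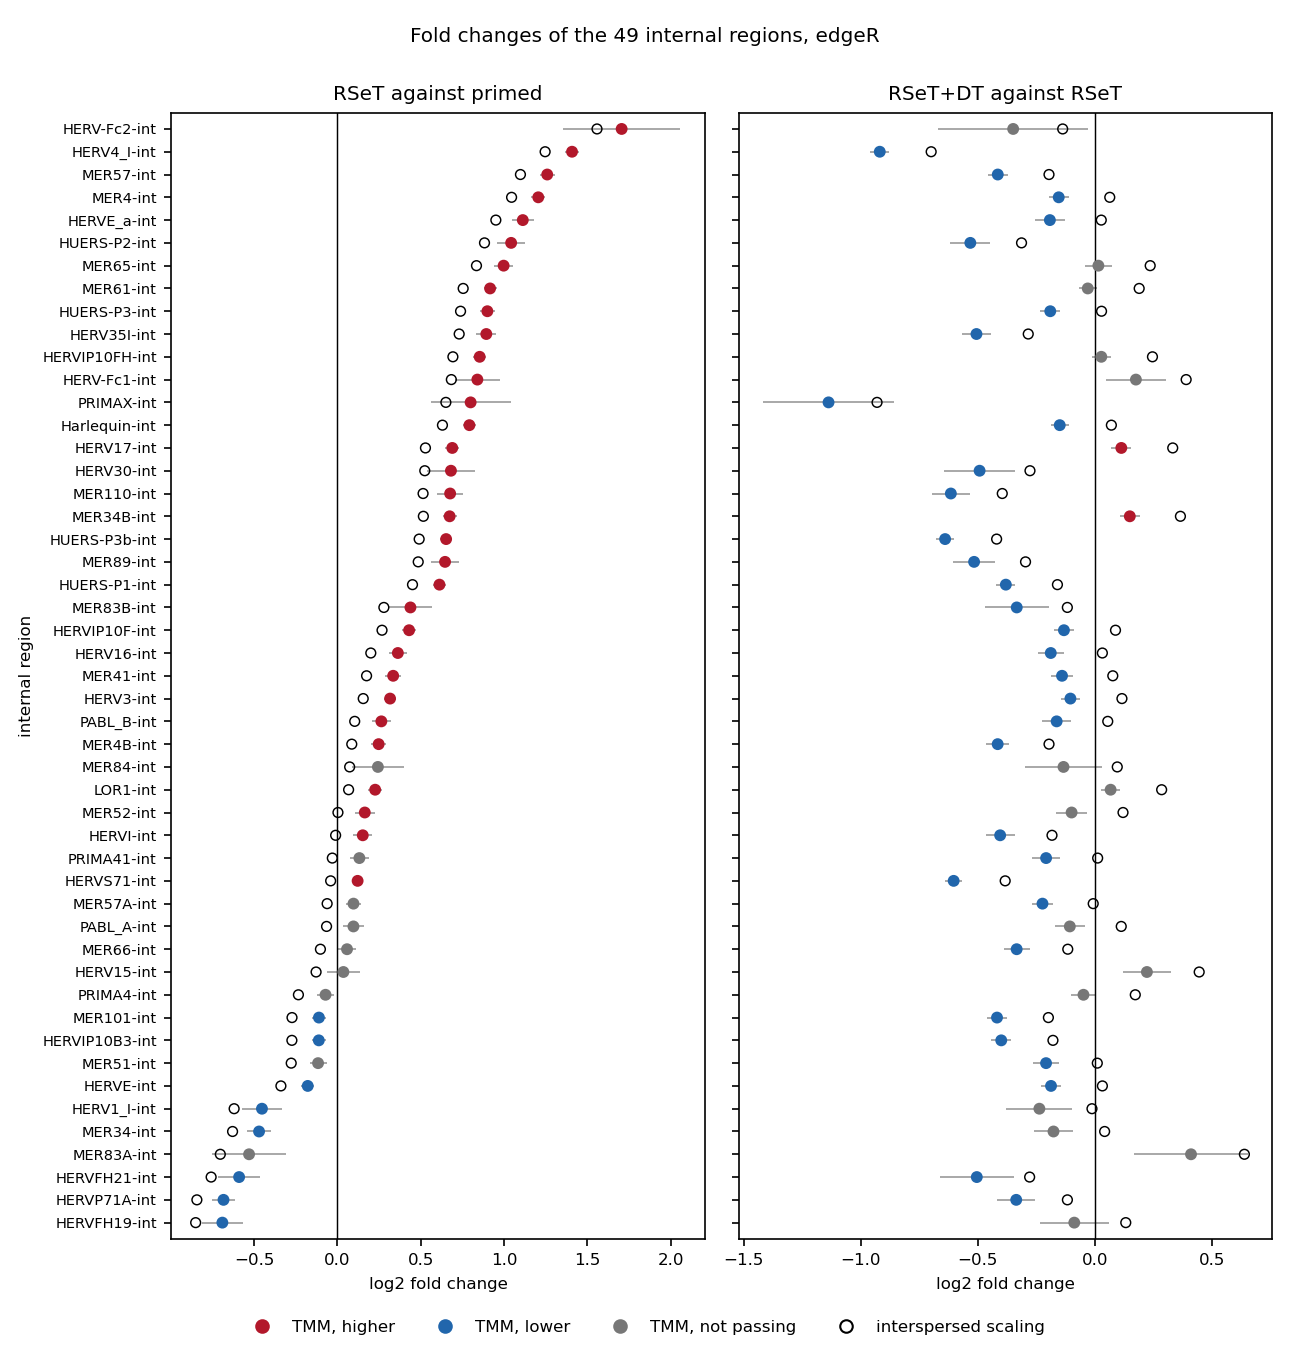
Log2 fold change of every internal region (rows) for RSeT against primed cells and for RSeT+DT against RSeT cells, from edgeR. Filled points use TMM with a line of 1 standard error to each side, coloured by the call, and open circles use interspersed scaling. In RSeT against primed cells 32 filled points are called higher and 8 lower, and in RSeT+DT against RSeT cells 2 are called higher and 32 lower.

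The HERVE family moved in both directions. HERVE-int, the internal region of the reference HERV-E provirus, fell from 217 and 220.1 CPM in primed to 176 and 177 CPM in RSeT libraries (log2 fold change -0.18 ± 0.039, adjusted p = 0.000479). Its relative HERVE_a-int rose from 31.9 and 30.2 CPM to 60.6 and 62.4 CPM (log2 fold change 1.11 ± 0.067, adjusted p = 4.70e-13). Harlequin-int, a mosaic element related to HERVE, rose from 156 and 169.5 CPM to 252 and 262 CPM (log2 fold change 0.79 ± 0.038, adjusted p = 4.29e-15). All 3 calls held under the 3 scalings. The LTRs split as well: LTR2 rose by 0.97 and LTR2C fell by 0.37 on the log2 scale, and LTR2B did not pass (0.03). HERV3-int, the family of the ERV3-1 envelope gene, had 181 and 194 CPM in primed and 211 and 214 CPM in RSeT libraries and rose under the 3 scalings, by a smaller amount (log2 fold change 0.32 ± 0.038, adjusted p = 1.79e-07). HERV1_I-int fell from 21.6 and 20.0 CPM to 12.3 and 16.2 CPM (log2 fold change -0.45 ± 0.12, adjusted p = 0.00327), and this call was lost without RSeT replicate 1 (log2 fold change -0.23, adjusted p = 0.214) or without primed replicate 1 (-0.36, adjusted p = 0.0571).

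HERVI and HERVIP10, which are flanked by LTR10, also split. HERVIP10FH-int had 153 and 159 CPM in primed and 258 and 256 CPM in RSeT libraries (log2 fold change 0.85 ± 0.040, adjusted p = 2.58e-15). HERVIP10F-int rose less, from 141 and 142 CPM to 171 and 177 CPM (log2 fold change 0.43 ± 0.042, adjusted p = 4.74e-09). Neither entry overlapped between the groups. HERVIP10B3-int was lower in RSeT, with 409 and 443 CPM in primed and 355 and 364 CPM in RSeT libraries (log2 fold change -0.11 ± 0.041, adjusted p = 0.0268), but the call was lost without RSeT replicate 1 (adjusted p = 0.194), RSeT replicate 2 (adjusted p = 0.175) or primed replicate 2 (adjusted p = 0.312). HERVI-int had 76.9 and 76.6 CPM and 75.7 and 80.7 CPM, which overlap. Its rise with TMM (log2 fold change 0.15 ± 0.057, adjusted p = 0.0324) became a log2 fold change of -0.01 under interspersed scaling, and it was lost without either primed library (adjusted p = 0.0573 and 0.193) or without RSeT replicate 2 (adjusted p = 0.167).

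HERVFH19-int and HERVFH21-int, the HERV-F relatives flanked by LTR19 and LTR21, were among the few internal regions that fell. HERVFH19-int had 15.7 and 20.5 CPM in primed and 9.92 and 10.5 CPM in RSeT libraries (log2 fold change -0.69 ± 0.12, adjusted p = 5.72e-05), the largest fall of the 49. HERVFH21-int had 25.1 and 26.3 CPM in primed and 13.2 and 19.1 CPM in RSeT libraries (log2 fold change -0.59 ± 0.13, adjusted p = 0.000492). The RSeT replicates of HERVFH21-int differed from each other by about as much as the higher of them lay below the primed libraries, and without RSeT replicate 1 the call was lost (log2 fold change -0.30, adjusted p = 0.0986). HERV-Fc1-int, of a small young branch that includes an envelope locus on the X chromosome, went the other way, from 7.13 and 7.85 CPM to 12.8 and 11.3 CPM (log2 fold change 0.84 ± 0.13, adjusted p = 1.30e-05). LTR21A and LTR21B fell with HERVFH21-int (log2 fold changes -0.40 and -0.40). The LTR19 entries did not move as one: LTR19A fell (-0.19), LTR19C rose with TMM (0.28) but did not pass under interspersed scaling (0.11), and LTR19B did not pass (0.15).

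HERVP71A-int, the internal region with LTR71 ends, fell from 58.1 and 65.1 CPM in primed to 35.1 and 34.6 CPM in RSeT libraries (log2 fold change -0.68 ± 0.067, adjusted p = 5.13e-09), and the groups were far apart. All 4 entries of the HUERS-P family rose under the 3 scalings. HUERS-P3-int, flanked by LTR9, rose from 109 and 114 CPM to 189 and 190.0 CPM (log2 fold change 0.90 ± 0.043, adjusted p = 3.00e-15). HUERS-P1-int, flanked by LTR8, rose from 145 and 152 CPM to 204 and 210.3 CPM (log2 fold change 0.61 ± 0.040, adjusted p = 1.84e-12), and HUERS-P3b-int by 0.65 on the log2 scale. HERVS71-int, flanked by LTR6, had 313 and 329 CPM in primed and 313 and 324 CPM in RSeT libraries, which overlap. It passed with TMM (log2 fold change 0.12 ± 0.034, adjusted p = 0.00452) but had a log2 fold change of -0.04 under interspersed scaling and -0.01 with library totals, so it had no direction that held under all scalings. Its call was also lost without primed replicate 1 (adjusted p = 0.111), primed replicate 2 (adjusted p = 0.0567) or RSeT replicate 2 (adjusted p = 0.0501).

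MER34-int and MER34B-int moved apart. MER34-int fell from 59.0 and 69.1 CPM in primed to 42.8 and 40.9 CPM in RSeT libraries (log2 fold change -0.47 ± 0.072, adjusted p = 7.01e-06), and MER34B-int rose from 165 and 177 CPM to 259.9 and 235 CPM (log2 fold change 0.67 ± 0.043, adjusted p = 1.10e-12). Both directions held under the 3 scalings. MER41-int rose from 321 and 338 CPM to 386 and 371 CPM (log2 fold change 0.33 ± 0.047, adjusted p = 1.61e-06). MER61-int, MER110-int, MER89-int, HERV35I-int and HERV30-int also rose under the 3 scalings, with log2 fold changes between 0.65 and 0.92, as did MER65-int. PRIMA41-int had 82.0 and 77.1 CPM in primed and 78.4 and 81.3 CPM in RSeT libraries, and its log2 fold change of 0.13 did not pass (adjusted p = 0.0544). PRIMAX-int had 2.02 and 2.13 CPM and 3.47 and 3.03 CPM, from 29 to 133 counts, and its rise (log2 fold change 0.80 ± 0.24, adjusted p = 0.0082) was lost without RSeT replicate 1 (adjusted p = 0.114) or primed replicate 1 (adjusted p = 0.0533). MER101-int was lower (log2 fold change -0.11), and this call was lost without RSeT replicate 1, RSeT replicate 2 or primed replicate 2 (adjusted p of at least 0.156). LOR1-int, MER4B-int, MER52-int, MER83B-int and PABL_B-int rose with TMM, with log2 fold changes from 0.16 to 0.44, and none of them passed under interspersed scaling. The call of MER52-int was lost without any one of the primed or RSeT libraries (adjusted p from 0.0532 to 0.202), and that of MER83B-int without RSeT replicate 1 (adjusted p = 0.137) or primed replicate 2 (adjusted p = 0.226). HERV17-int and HERV16-int rose under the 3 scalings, with TMM log2 fold changes of 0.69 ± 0.042 and 0.36 ± 0.052. The 9 that did not pass with TMM were HERV15-int, MER51-int, MER57A-int, MER66-int, MER83A-int, MER84-int, PABL_A-int, PRIMA4-int and PRIMA41-int, of which 4 had an unadjusted p under 0.05. Among them, MER51-int, MER83A-int and PRIMA4-int were lower both under interspersed scaling (log2 fold changes -0.28, -0.70 and -0.23) and with library totals.

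In RSeT+DT against RSeT cells, 2 of the 49 internal regions were higher and 32 were lower, and 15 did not pass. The RSeT libraries are also those of the first comparison, so a rise there and a fall here are not independent. Among all tested repeats 25.0% were higher and 17.4% lower, and among interspersed repeats 5.55% were higher and 54.7% lower. Of the 49, 4.08% were higher and 65.3% lower, and of the 89 tested internal regions of other retroviruses 4.49% and 56.2%. The log2 fold changes ran from -1.14 to 0.41 with a median of -0.19, beside -0.22 for interspersed repeats. Without HERV16-int and HERV17-int, 1 of 47 was higher and 31 were lower. The counts differed between the fits: under interspersed scaling 11 were higher and 14 lower, with 22.4% and 20.7% of interspersed repeats, and with library totals 0 were higher and 38 lower, with 2.20% and 73.1%. The share of interspersed repeats that held under all 3 scalings was not counted. It cannot exceed 20.7% for falls and 2.20% for rises, and its difference from the internal regions was not tested. Only 14 falls (28.6%), and no rise, held under all 3 scalings. They were HERV35I-int, HERV4_I-int, HERVI-int, HERVIP10B3-int, HERVS71-int, HUERS-P1-int, HUERS-P2-int, HUERS-P3b-int, MER101-int, MER110-int, MER4B-int, MER57-int, MER89-int and PRIMAX-int, and none of the 14 calls was lost when 1 library was left out.

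HERV4_I-int, the largest rise in RSeT cells among those with at least 50 counts, had 259 and 261 CPM in the RSeT libraries and 121 and 126 CPM in the RSeT+DT libraries (log2 fold change -0.92 ± 0.041, adjusted p = 4.51e-15). Under interspersed scaling its log2 fold change was -0.70. HERVS71-int had 313 and 324 CPM in RSeT and 183 and 194 CPM in RSeT+DT libraries (log2 fold change -0.60 ± 0.035, adjusted p = 1.35e-12). The primed libraries had been at the RSeT level for this entry, so the treated libraries stood below both other groups. HUERS-P3b-int fell from 387 and 398 CPM to 221 and 232 CPM (log2 fold change -0.64 ± 0.037, adjusted p = 1.07e-12). MER110-int fell from 62.4 and 64.2 CPM to 36.0 and 38.2 CPM (log2 fold change -0.62 ± 0.081, adjusted p = 7.60e-07), and its primed libraries had 47.3 and 38.7 CPM. HUERS-P2-int fell from 39.6 and 39.2 CPM to 23.8 and 25.3 CPM (log2 fold change -0.53 ± 0.085, adjusted p = 1.23e-05), and HUERS-P1-int from 204 and 210.3 CPM to 143 and 143 CPM (log2 fold change -0.38 ± 0.041, adjusted p = 3.10e-08). HUERS-P3-int, the remaining HUERS-P entry, had 142 and 157 CPM in the treated libraries. Its fall with TMM (log2 fold change -0.19 ± 0.042, adjusted p = 0.000651) became a log2 fold change of 0.03 under interspersed scaling. MER89-int, HERV35I-int, MER101-int, MER4B-int and MER57-int, which also fell under all 3 scalings, had log2 fold changes between -0.52 and -0.42 with TMM. PRIMAX-int had 1.38 and 1.30 CPM in RSeT+DT libraries, from 18 and 15 counts, and was the only entry that changed by at least 2-fold (log2 fold change -1.14 ± 0.28, adjusted p = 0.00174).

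**Figure D3:**
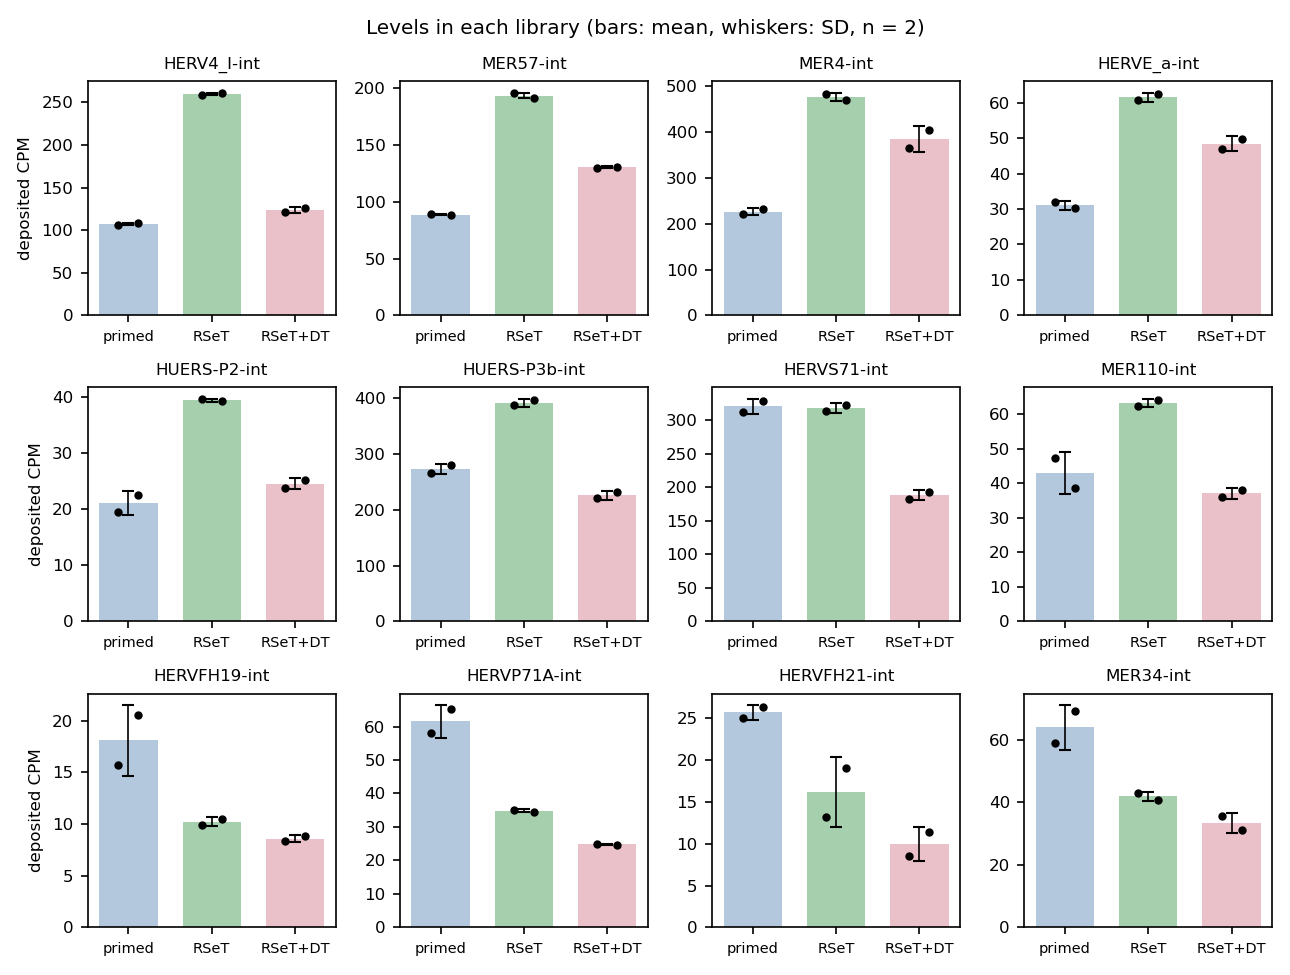
Deposited CPM of 12 internal regions in primed, RSeT and RSeT+DT cells. Points are libraries, bars are means from 0, and whiskers are SD with n = 2. HERV4_I-int stands at 107 and 108 CPM in primed, 259 and 261 CPM in RSeT and 121 and 126 CPM in RSeT+DT libraries, while HERVP71A-int and MER34-int are highest in the primed and lowest in the RSeT+DT libraries.

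HERVI-int and HERVIP10B3-int fell in the treated cells, from 75.7 and 80.7 CPM to 54.7 and 50.9 CPM (log2 fold change -0.41 ± 0.062, adjusted p = 7.49e-06) and from 355 and 364 CPM to 247 and 242 CPM (log2 fold change -0.40 ± 0.042, adjusted p = 2.10e-08). HERVIP10FH-int had 221 and 249.7 CPM in the treated libraries and did not pass with TMM (log2 fold change 0.03, adjusted p = 0.622), and it was higher under interspersed scaling (0.25). HERVIP10F-int had 138 and 148 CPM and was lower with TMM (log2 fold change -0.13 ± 0.043, adjusted p = 0.0147), with a log2 fold change of 0.09 under interspersed scaling. That call was lost without RSeT+DT replicate 1 (adjusted p = 0.106) or RSeT replicate 2 (adjusted p = 0.124). Within this LTR10-flanked family the falls that held under the 3 scalings were thus those of HERVI-int and HERVIP10B3-int.

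HERVE-int had 139 and 139.6 CPM, HERVE_a-int 46.8 and 49.8 CPM and Harlequin-int 204 and 211 CPM in the RSeT+DT libraries. All 3 were lower than in RSeT cells with TMM, with log2 fold changes of -0.19, -0.19 and -0.15, and all 3 were at 0.03 to 0.07 and did not pass under interspersed scaling. HERVE_a-int and Harlequin-int also lost the TMM call without RSeT replicate 2 (adjusted p = 0.108 and 0.0512), and HERVE_a-int without RSeT replicate 1 (adjusted p = 0.0728) or RSeT+DT replicate 1 (adjusted p = 0.128). HERV3-int had 177 and 178 CPM and was lower with TMM (log2 fold change -0.10, adjusted p = 0.0323) and higher under interspersed scaling (0.11), and the TMM call was lost without any one library other than RSeT+DT replicate 1 (adjusted p from 0.0924 to 0.183). MER4-int had 365 and 405 CPM and MER41-int 285 and 334 CPM, with log2 fold changes of -0.15 and -0.14 that turned to 0.06 and 0.08 under interspersed scaling. Both were lost without RSeT replicate 1 (adjusted p = 0.108 and 0.261) or RSeT+DT replicate 1 (adjusted p = 0.116 and 0.542). PRIMA41-int had 61.5 and 62.5 CPM and a log2 fold change of -0.21 with TMM, and 0.01 under interspersed scaling, and it lost the call without RSeT replicate 2 (adjusted p = 0.0605). These entries therefore had no direction that held across scalings.

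The internal regions that fell most in RSeT cells stayed below both primed libraries in RSeT+DT cells. HERVP71A-int had 25.0 and 24.7 CPM in the treated libraries (log2 fold change -0.34 ± 0.080, adjusted p = 0.00128), HERVFH21-int 8.50 and 11.4 CPM and HERVFH19-int 8.34 and 8.85 CPM. HERVFH21-int passed (log2 fold change -0.50 ± 0.16, adjusted p = 0.0113) but lost the call without RSeT replicate 2 (adjusted p = 0.194) or RSeT+DT replicate 1 (adjusted p = 0.222), and HERVFH19-int did not pass (log2 fold change -0.09). Under interspersed scaling none of the 3 passed. MER34-int had 35.6 and 31.0 CPM and HERV1_I-int 10.0 and 11.2 CPM, and neither passed (log2 fold changes -0.18 and -0.24). HERV-Fc1-int had 11.8 and 13.0 CPM and did not pass with TMM (log2 fold change 0.17), but it was higher under interspersed scaling (0.39).

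The 2 rises with TMM were HERV17-int and MER34B-int. HERV17-int had 499 and 495 CPM in RSeT and 483 and 482 CPM in RSeT+DT libraries, so its deposited CPM was lower after treatment while the TMM fit put it higher (log2 fold change 0.11 ± 0.042, adjusted p = 0.0333). With library totals its log2 fold change was -0.04, and with TMM the call was lost without RSeT replicate 1 (adjusted p = 0.0903), RSeT replicate 2 (adjusted p = 0.188) or RSeT+DT replicate 1 (adjusted p = 0.134). MER34B-int had 259.9 and 235 CPM in RSeT and 241 and 254 CPM in RSeT+DT libraries, which overlap (log2 fold change 0.15 ± 0.042, adjusted p = 0.00571), and lost the call without RSeT replicate 2 (log2 fold change 0.08, adjusted p = 0.198). For comparison, HERVH-int, an ERV1 internal region outside the name rule and known for its RNA in human pluripotent cells, rose by 1.70 from primed to RSeT and by 0.80 from RSeT to RSeT+DT cells on the log2 scale.

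The remaining falls with TMM in RSeT+DT against RSeT cells were those of HERV16-int, MER51-int, MER57A-int, MER66-int, MER83B-int and PABL_B-int, with log2 fold changes between -0.33 and -0.16, and none of them passed under interspersed scaling. HERV16-int lost the call without RSeT+DT replicate 1 (adjusted p = 0.0551) or RSeT replicate 2 (adjusted p = 0.0699), and MER51-int without RSeT+DT replicate 1 (adjusted p = 0.097). MER83B-int lost it without any one RSeT or RSeT+DT library (adjusted p from 0.0695 to 0.366), and PABL_B-int without any one library other than RSeT+DT replicate 2 (adjusted p from 0.0557 to 0.219). HERV15-int, LOR1-int, MER61-int, MER65-int, MER83A-int and PRIMA4-int did not pass with TMM and were higher under interspersed scaling. HERV-Fc2-int, MER52-int, MER84-int and PABL_A-int passed under neither of these scalings.

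In RSeT+DT against primed cells, 21 of the 49 internal regions were higher and 14 were lower, and 14 did not pass. Among all tested repeats 25.1% were higher and 20.6% lower, and among interspersed repeats 24.4% were higher and 34.3% lower. The median log2 fold change was 0.11, beside -0.07 for interspersed repeats. Without HERV16-int and HERV17-int, 19 of 47 were higher and 14 lower. Under interspersed scaling 23 were higher and 12 lower, where 32.1% and 29.6% of interspersed repeats were. With library totals 13 were higher and 21 lower, where 10.5% and 61.1% were. The share of interspersed repeats that held under all 3 scalings was not counted. It cannot exceed 10.5% for rises and 29.6% for falls, and its difference from the internal regions was not tested. The limit for falls is too high to show whether internal regions fell more or less often. A total of 13 rises (26.5%) and 12 falls (24.5%) of internal regions held under all 3 scalings. This comparison shares the primed libraries with the first and the RSeT+DT libraries with the second, so its values are given side by side with theirs and are no independent support.

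The 5 largest rises with at least 50 counts on average were those of MER4-int, HERV-Fc1-int, MER65-int, HERVE_a-int and MER61-int. MER4-int had a log2 fold change of 1.05 ± 0.044, HERV-Fc1-int of 1.01 ± 0.15 and HERVE_a-int of 0.92 ± 0.075. MER65-int had 45.0 and 46.8 CPM in primed, 80.8 and 87.2 CPM in RSeT and 74.6 and 77.3 CPM in RSeT+DT libraries (log2 fold change 1.01 ± 0.063, adjusted p = 6.57e-13). MER61-int had 228 and 237 CPM, 399 and 403 CPM and 343 and 362 CPM in the same order (log2 fold change 0.89 ± 0.039, adjusted p = 9.08e-16). For these 5 entries both RSeT+DT libraries lay above both primed libraries, as their choice required, and the calls held under the 3 scalings. Harlequin-int (0.64 ± 0.040), HERVIP10FH-int (0.88 ± 0.042), HUERS-P3-int (0.71 ± 0.045), MER57-int (0.84 ± 0.048), MER34B-int (0.82 ± 0.044) and HERV4_I-int (0.49 ± 0.044) were also higher under the 3 scalings, as log2 fold changes ± SE.

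The largest falls were those of HERVFH21-int (log2 fold change -1.09 ± 0.16, adjusted p = 2.26e-06), HERVP71A-int (log2 fold change -1.02 ± 0.079, adjusted p = 5.82e-11), HERVFH19-int (log2 fold change -0.78 ± 0.14, adjusted p = 8.20e-05), HERV1_I-int (log2 fold change -0.69 ± 0.14, adjusted p = 0.000265) and MER34-int (log2 fold change -0.65 ± 0.082, adjusted p = 4.29e-07). All 5 held under the 3 scalings, and in each the RSeT+DT libraries lay below both primed libraries, as their choice required. HERVIP10B3-int (-0.51 ± 0.042), HERVS71-int (-0.48 ± 0.036), HERVE-int (-0.37 ± 0.041), HERVI-int (-0.25 ± 0.065) and MER101-int (-0.53 ± 0.044) were lower too, as log2 fold changes ± SE, and the call for HERVI-int was lost without RSeT+DT replicate 2 (adjusted p = 0.0875). HERV3-int, HUERS-P1-int and MER41-int were higher with TMM (log2 fold changes 0.21, 0.23 and 0.19) and did not pass with library totals (-0.08, -0.05 and -0.09), and the CPM of MER41-int overlapped between the groups. HERVIP10F-int was higher with TMM (0.30) although its CPM overlapped between the groups. With library totals its log2 fold change was 0.01 and did not pass (adjusted p = 0.863). HUERS-P2-int was higher with TMM (log2 fold change 0.51 ± 0.097, adjusted p = 0.00011) and did not pass with library totals. PRIMA41-int and PRIMAX-int did not pass (log2 fold changes -0.08 and -0.34). Of the entries not yet named here, HERV-Fc2-int, HERV16-int, HERV17-int, HERV35I-int and LOR1-int were higher with TMM and MER4B-int, MER51-int, MER57A-int and MER66-int were lower. LOR1-int overlapped between the groups, and its log2 fold change of 0.29 became 0.01 with library totals (adjusted p = 0.924). HERV35I-int (0.10) and HERV16-int (-0.11) did not pass with library totals either. MER4B-int and MER57A-int did not pass under interspersed scaling (adjusted p = 0.0528 and 0.201). HERV-Fc2-int lost the call without primed replicate 1 (adjusted p = 0.135) or RSeT+DT replicate 1 (adjusted p = 0.0627), HERV16-int without primed replicate 2 (adjusted p = 0.0862), MER4B-int without primed replicate 1 (adjusted p = 0.151), and MER57A-int without any one library other than RSeT replicate 1 (adjusted p from 0.0537 to 0.288).

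The flanking LTRs of the 29 families, of which 129 were tested, had 73 rises and 14 falls in RSeT against primed cells (median log2 fold change 0.24) and 46 and 31 under interspersed scaling. Of all interspersed repeats, 50.8% rose and 8.01% fell there with TMM, and 29.8% and 26.3% under interspersed scaling. In RSeT+DT against RSeT cells the 129 LTRs had 11 rises and 52 falls with TMM (median -0.14), beside 5.55% and 54.7% of interspersed repeats. Under interspersed scaling the 129 LTRs had 33 rises and 8 falls, beside 22.4% and 20.7% of interspersed repeats. The 49 internal regions, HERV16-int and HERV17-int included, had 11 rises (22.4%) and 14 falls (28.6%) there. The counts of an LTR entry include those of solitary LTRs, which have no internal region. HERVS71-int fell in RSeT+DT against RSeT cells by 0.60 and LTR6B by 0.42 on the log2 scale while LTR6A rose by 0.64. Under interspersed scaling these were -0.38, -0.20 and 0.86. HERV4_I-int fell by 0.92 while LTR51 changed by -0.09 and did not pass, and HERV30-int fell by 0.49 while LTR30 had 0.20 and did not pass. Under interspersed scaling LTR30 was higher (0.42, adjusted p = 0.0119). HERV30-int lost its call under interspersed scaling, without RSeT+DT replicate 2 (adjusted p = 0.122) and without RSeT replicate 1 (adjusted p = 0.130). In RSeT against primed cells LTR51 rose by 0.61, less than HERV4_I-int at 1.41. MER61A rose by 1.19 from primed to RSeT and by 0.43 from RSeT to RSeT+DT cells, where MER61-int had 0.92 and -0.03. These families were picked after their values were seen.

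**Figure D4:**
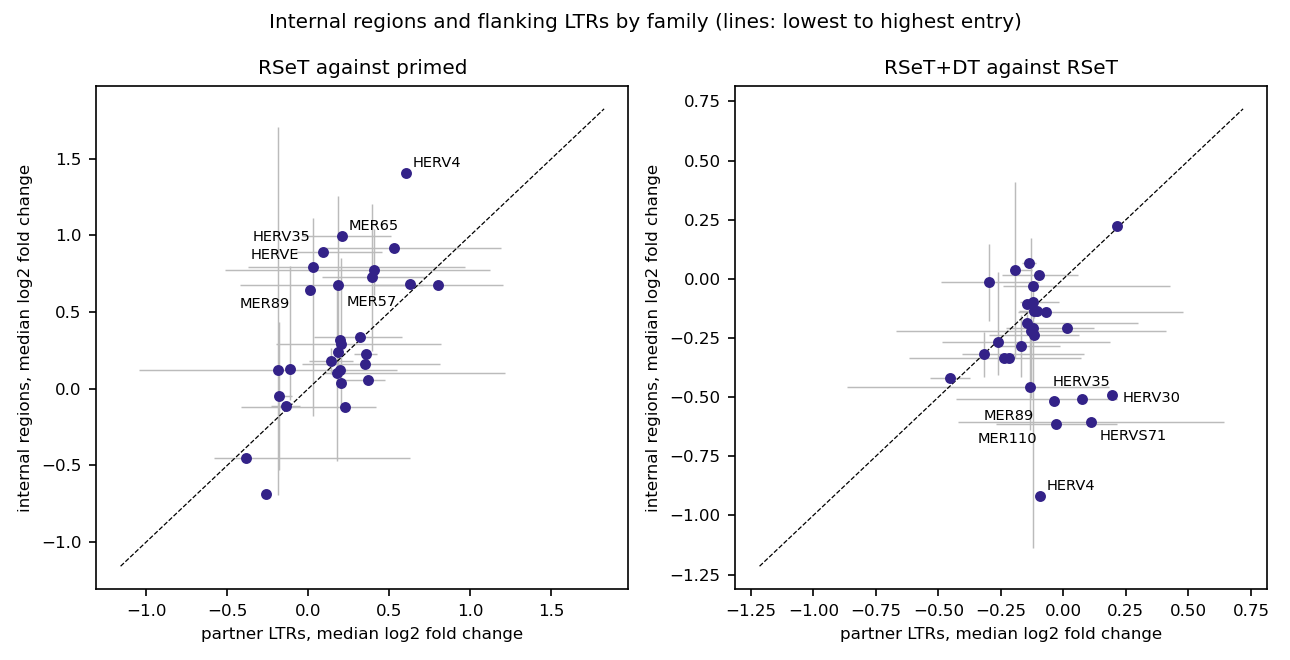
Median log2 fold change of a family's internal regions (vertical axis) against that of its flanking LTRs (horizontal axis), 1 point per family, with lines from the lowest to the highest entry and a dashed line of equal change. The families farthest from the dashed line are named. HERV4 lies above the dashed line in RSeT against primed cells and below it in RSeT+DT against RSeT cells.

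Ratios of the counts of 2 entries within a library do not depend on any scaling between libraries. They were computed for 15 pairs chosen after the values were seen, so they describe these libraries and are no independent test. The log2 ratio of HERVE_a-int to HERVE-int was -2.77 and -2.87 in primed, -1.54 and -1.50 in RSeT and -1.57 and -1.49 in RSeT+DT libraries. That of Harlequin-int to HERVE-int was -0.48 and -0.38, then 0.51 and 0.57, then 0.56 and 0.60. Both ratios thus separated primed from RSeT libraries, and RSeT and RSeT+DT libraries overlapped. MER34B-int to MER34-int went from 1.48 and 1.36 in primed to 2.60 and 2.52 in RSeT and 2.76 and 3.04 in RSeT+DT libraries. HERVIP10FH-int to HERVIP10B3-int went from -1.42 and -1.48 to -0.46 and -0.51 and then to -0.16 and 0.04. HERV-Fc1-int to HERVFH21-int went from -1.81 and -1.75 to -0.05 and -0.75 and then to 0.47 and 0.20. In these 3 pairs the groups did not overlap in any comparison. The MER57-int to MER57A-int ratio was -0.98 and -1.11 in primed, 0.08 and 0.16 in RSeT and -0.04 and -0.10 in RSeT+DT libraries, so it rose and then fell in part. HUERS-P3b-int to HUERS-P3-int fell at both steps, from 1.29 and 1.30 to 1.03 and 1.07 and then to 0.63 and 0.57.

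Ratios of an internal region to an LTR of its family were taken for 7 pairs. HERV4_I-int to LTR51 was 1.89 and 1.92 in primed, 2.73 and 2.67 in RSeT and 1.98 and 1.78 in RSeT+DT libraries, on the log2 scale. The treated libraries thus overlapped the primed ones and lay below the RSeT ones. HERVS71-int to LTR6A was -1.43 and -1.38 in primed, -1.51 and -1.37 in RSeT and -2.78 and -2.58 in RSeT+DT libraries, so only the treated libraries stood apart for this pair. Against LTR6B, which fell with it, the ratio of HERVS71-int was 1.97 and 2.03, then 1.85 and 1.91, then 1.64 and 1.75, with a difference of -0.18 between RSeT+DT and RSeT means where that against LTR6A was -1.25. HERV30-int to LTR30 was -0.14 and -0.42 in primed and -0.08 and -0.41 in RSeT libraries, which overlap, and -0.98 and -0.80 in RSeT+DT libraries. MER61-int to MER61A fell at both steps, from 1.07 and 1.07 to 0.79 and 0.81 and then to 0.30 and 0.39. For the remaining pairs RSeT and RSeT+DT libraries overlapped. HERVP71A-int to LTR71A was 1.48 and 1.56 in primed, 1.12 and 1.02 in RSeT and 0.89 and 1.08 in RSeT+DT libraries, and HERV3-int to LTR4 was 2.45 and 2.56, then 2.60 and 2.66, then 2.80 and 2.53. For every separated pair the exact two-sided permutation p was 0.333, the smallest that 2 libraries against 2 can give, so no adjustment over the 15 pairs could bring it past 0.05.

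**Figure D5:**
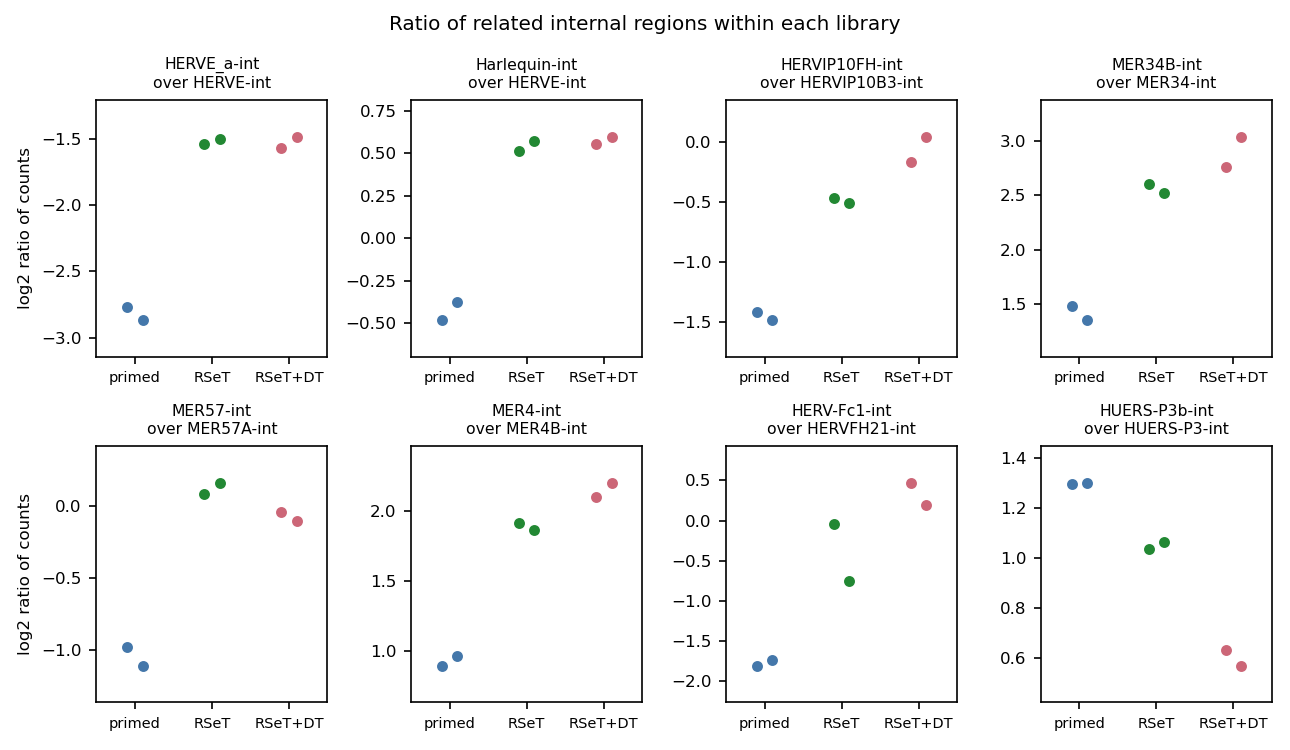
Log2 ratio of the counts of 2 related internal regions within each library, by group, for 8 pairs (points are libraries, n = 2 per group). The ratio of HERVE_a-int to HERVE-int has a mean of -2.82 over the primed, -1.52 over the RSeT and -1.53 over the RSeT+DT libraries, and the ratio of HUERS-P3b-int to HUERS-P3-int falls from primed to RSeT to RSeT+DT.

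Of the 29 families, 10 had several members, and in RSeT against primed cells 4 of these held both a rise and a fall with TMM: HERVE, HERVI with HERVIP10, HERVFH with HERV-Fc, and MER34. PRIMA joined these 4 under interspersed scaling, and PRIMA and MER83 with library totals. The number in RSeT+DT against RSeT cells was 0 with TMM and with library totals and 2 under interspersed scaling, HERVI with HERVIP10 and PRIMA. In RSeT+DT against primed cells the first 4 families held both directions under all 3 scalings. MER57 and MER4 were added with TMM, through the falls of MER57A-int and MER4B-int, and not under interspersed scaling, and HUERS-P, MER4 and MER57 were added with library totals. In RSeT against primed cells, the only TMM fall in HERVI with HERVIP10 was that of HERVIP10B3-int. That call was lost without some library. How often other repeat families with several entries held both directions was not counted.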

How the data were processed

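RNA of 500K H9 cells per sample was sequenced as stranded total RNA libraries, per the labels' protocols. Both tables hold 1 value per repeat name and library. The authors deposited raw counts per repeat (15600 entries) and a CPM table (7383 entries), and recomputing CPM from the counts and their totals matched the deposited CPM within 0.00442. Trimmomatic 0.39, STAR 2.7.8a, featureCounts, Subread 2.14.2 and the GRCh38/hg38 build are named in the submitters' processing notes. For the repeat annotation, the strand setting and the handling of multi-mapping reads the answer was not given in the sources used here, and multi-mapping sets how reads divide between related subfamilies.

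Counts were tested with edgeR 4.0.16 (R 4.3.3, quasi-likelihood, TMM) in one fit of all 6 libraries, with group as the only term. Repeats were kept by filterByExpr (minimum count 10, minimum total 15), which left 4665 entries, 1136 of them interspersed, and p-values were adjusted over all 4665 by Benjamini-Hochberg. All 49 internal regions passed this filter, the lowest with a mean of 28.8 counts. The fit had 3 residual degrees of freedom and a common biological coefficient of variation of 5.49%. Between replicates the counts of the 49 entries differed by more than sampling noise (chi-square per degree of freedom 4.37 for primed, 4.04 for RSeT and 4.49 for RSeT+DT cells). Expected counts came from library totals without TMM, so a shift of all 49 entries between replicates is included in these values.

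Alternatives were DESeq2 1.42.0, limma 3.58.1 on log2 of CPM plus 1 or 0.1, RLE size factors, library totals, interspersed scaling (1151 repeats tested and adjusted over), no filter or a mean count of at least 50, a block for the replicate number, the compared groups alone, and each library left out. Entries printed with every library's value were the 5 largest rises and falls of a comparison that passed, had a mean count of at least 50 and did not overlap, plus a list of anchor entries. The members, lists and tests were chosen with earlier results of these data known. LTR name patterns for LTR10, HERVFH and HUERS-P were corrected after the entry names were seen, and the within-library ratios were added after the values were seen. Of the 134 LTR entries these patterns took for the 29 families, 129 were tested. No repeat sequences are printed.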

Additional observations from a re-analysis of the deposited data

How the results depend on the processing

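Most of the 49 internal regions kept direction and call under RLE size factors, both filters and the compared groups alone, and more changed call or direction under other scalings and with limma. Of the 49, interspersed scaling changed 10 in RSeT against primed, 26 in RSeT+DT against RSeT and 4 in RSeT+DT against primed cells, library totals 9, 8 and 15, and limma 10, 8 and 13 to 15. Interspersed scaling changed the tested set as well as the scaling, and the 2 were not separated. The number lower in RSeT against primed cells was 5 with DESeq2. The number higher in RSeT+DT against RSeT cells was 11 under interspersed scaling, 1 with RLE size factors, the 2 groups alone or without HERV16-int and HERV17-int, and 0 with library totals, no filter, a mean count of at least 50, DESeq2 or limma with either pseudocount. The number lower there was 14 under interspersed scaling. The number higher in RSeT+DT against primed cells was 13 with library totals and with limma plus 0.1, and 12 with limma plus 1.

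Leaving out 1 library gave 29 to 34 higher and 4 to 10 lower in RSeT against primed cells, 0 to 3 and 23 to 30 in RSeT+DT against RSeT, and 20 to 22 and 12 to 14 in RSeT+DT against primed. The 4 came without RSeT replicate 1 and the 0 without RSeT replicate 2. Of the calls, 9 of 40, 15 of 34 and 5 of 35 were lost without some library, and none reversed. Where this left a group with 1 library, that library was taken to vary like the others. How often the calls of other repeats were lost without some library was not counted.

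With the replicate number as a block the counts were 32 and 8, 2 and 31, and 21 and 14. The labels link same-numbered libraries by the number alone. Their deviations from the group means, over the 4665 tested repeats, correlated at 0.0375, -0.0419 and 0.0219. Sampling noise of low counts can hide a shared culture or batch, so these values do not decide whether one was shared. The block lost 1 call.

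Log2 fold changes with a call that changed sign were, in RSeT against primed cells, HERVI-int at -0.0106 under interspersed scaling and HERVS71-int at -0.0404 under interspersed scaling, -0.0108 with library totals and -0.0101 and -0.0102 with limma. In RSeT+DT against RSeT cells, interspersed scaling gave HERV16-int 0.0314, HERV3-int 0.115, HERVE-int 0.0315, HERVE_a-int 0.0267, HERVIP10F-int 0.0875, HUERS-P3-int 0.0278, Harlequin-int 0.0698, MER4-int 0.0629, MER41-int 0.0759, MER51-int 0.00974, MER61-int 0.189, PABL_B-int 0.0544, PRIMA4-int 0.172 and PRIMA41-int 0.0113. HERV17-int was at -0.0418 with library totals and -0.0414 with limma, and MER34B-int at -0.00374 with library totals. In RSeT+DT against primed cells the values with library totals, limma plus 1 and limma plus 0.1 were -0.111, -0.110 and -0.111 for HERV16-int, -0.0757, -0.0752 and -0.0756 for HERV3-int, -0.0547, -0.0544 and -0.0548 for HUERS-P1-int, -0.274, -0.272 and -0.273 for HUERS-P3b-int, -0.0910, -0.0940 and -0.0943 for MER41-int, and -0.221, -0.219 and -0.223 for MER52-int. PABL_B-int was at -0.186 with library totals and -0.183 with limma plus 1, and MER110-int at -0.222 with library totals. The 49 entries moved by a median of -0.16, 0.22 and 0.06 under interspersed scaling, as did the 1151 repeats tested there, and limma used the CPM and so the scale of library totals.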
